A study of Mus musculus with 12 samples.

Results

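The genes described here encode the proteins of homologous recombination, the Fanconi anemia pathway, the DNA damage checkpoint, mismatch repair and end joining. They were chosen by name, as 45 listed symbols. The choosing rule uses no measured value, but the list was drawn up with earlier results of these data known. Of these, 44 were among the 12516 gene symbols of the deposited table, and all 44 passed the filter on low values. The symbol Claspn matched no row. Clspn, the mouse symbol for claspin, is listed, and its values are given apart from the 44. The samples were germ cells of 12 female mouse embryos at embryonic day 13.5, all Gulo-/- on a C57BL/6 background and therefore dependent on dietary vitamin C. Cells positive for Oct4 were sorted from each embryo. Vitamin C was supplied to the mothers of 6 embryos at physiological levels and withdrawn during gestation from the mothers of the other 6. The titles number the embryos 1 to 4 under each diet, with repeats, and the labels do not say what a shared number means, so the p-values treat all 12 as independent.

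Homologous recombination copies an intact template into a broken DNA molecule. The break is sensed and trimmed, BRCA1, PALB2 and BRCA2 prepare the single strand for pairing with the template, and the joined molecules are later cut or dissolved. The Fanconi anemia proteins unhook crosslinked strands and hand the break to the same machinery, whereas end joining through Ku and DNA-PK rejoins ends without a template. ATM and ATR are the kinases that report damage to the cell cycle. Female germ cells at this age pass from mitotic division into meiosis, in which programmed breaks are repaired by recombination.

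Of the 44 members, 4 passed the test, Xrcc5 and Chek2 higher and Brca2 and Prkdc lower in withdrawn embryos, and 40 did not. A gene is called where its adjusted p is below 0.05 in limma, fitted over all 12432 genes kept. The 4 of 44 called are 9.09% of the members, against 14.0% of all genes tested. By direction, 2 members were higher and 2 lower, where 6.22% of all genes were higher and 7.75% lower. The median log2 fold change (withdrawn minus supplied, log2 scale throughout) was -0.02 over the members and -0.01 over all genes, and the median absolute value was 0.08 in each. At an unadjusted p below 0.05 there were 13 of 44 members, beside 30.2% of all genes. The groups of 6 embryos overlapped for every member, and 4.49% of all genes had groups that did not overlap. Whether the members differ from all genes in these shares was not tested. For the 40 members not called, the 95% intervals of the log2 fold change reached from -0.44 to 0.37 at the widest. In bulk samples such as these, fewer cells of a type and less RNA per cell cannot be told apart.

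**Figure D1:**
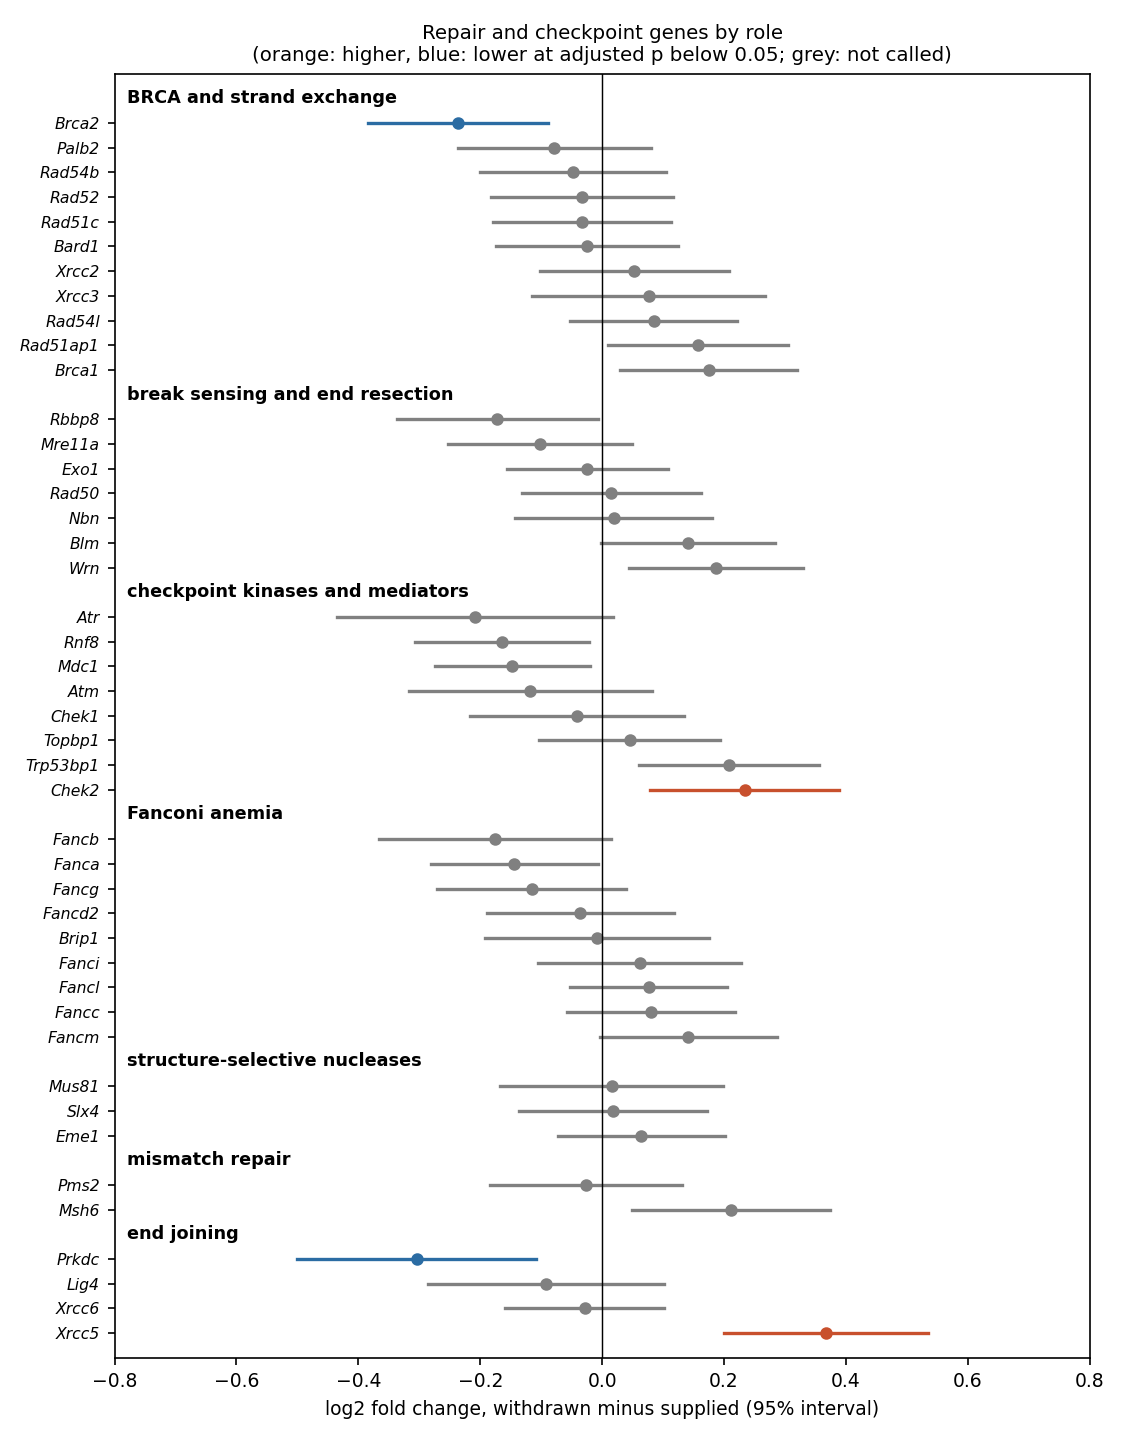
Log2 fold change (withdrawn minus supplied) of 44 repair and checkpoint genes, grouped by role, with the 95% interval from limma (n = 6 embryos per group). Xrcc5 (0.37) and Prkdc (-0.30) lie farthest from 0, and the 40 grey members were not called.

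Sequence from before the start of some members is shown first, because many DNA repair genes are described as targets of the E2F cell cycle factors. The E2F-type motif was searched as TTTCCCGC, TTTCGCGC, TTTGCCGC and TTTGGCGC on both strands in the 250 bases before each annotated start; overlapping matches would count separately. A window was found for 35 listed members, and 7 of them (20%) held a match. Over all 27025 genes with a window the share was 2.16%, and over the 9714 tested genes with one it was 4.14%. The matches are printed 5′ to 3′ on the strand of the gene with up to 20 bases on each side, and the capitals mark the motif or its reverse complement. Coordinates are of GRCm38.p6, not the mm9 build of the deposited values.
Brca2, chr5:150522433-150522480, plus strand: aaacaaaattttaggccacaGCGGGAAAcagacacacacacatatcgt
Chek2, chr5:110839811-110839858, plus strand: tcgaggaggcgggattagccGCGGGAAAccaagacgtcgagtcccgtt
Xrcc6, chr15:82016303-82016350, plus strand: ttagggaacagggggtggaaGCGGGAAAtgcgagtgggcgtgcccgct
Bard1, chr1:71103154-71103201, minus strand: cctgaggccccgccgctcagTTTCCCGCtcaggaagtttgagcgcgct
Topbp1, chr9:103305178-103305225, plus strand: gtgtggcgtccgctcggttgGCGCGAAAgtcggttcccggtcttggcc
Fancg, chr4:43010326-43010373, minus strand: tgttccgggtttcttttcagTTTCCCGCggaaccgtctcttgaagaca
Mdc1, chr17:35841462-35841497, plus strand: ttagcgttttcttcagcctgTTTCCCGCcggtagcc

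The match of Brca2 begins 168 bases before its start and that of Chek2 152 bases before, and these members moved in opposite directions. The other 5 with a match were not called. The median log2 fold change of the 7 was -0.03.

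The end joining genes held the largest changes among the members. Xrcc5 encodes Ku80, which with Ku70 forms the ring that slides onto broken ends. Its normalized log2 values in supplied embryos were 10.37 at the lowest, 10.61 at the median and 10.83 at the highest, and in withdrawn embryos 10.80, 10.99 and 11.07. Of the 6 withdrawn embryos, 5 lay above every supplied embryo, and the sixth lay just under the highest supplied value. The mean rose from 10.60 ± 0.20 to 10.96 ± 0.10 (SD, n = 6 each), which is 0.37 on the log2 scale (SE 0.08, 1.29-fold, adjusted p = 0.00682 in limma). It was called in every fit that left out 1 embryo, with adjusted p from 0.00259 to 0.0225. With a random effect for embryos that share title number and diet it was the 1 member still called (adjusted p = 0.0164; 7.13% of all genes), and with such embryos averaged no member was called by limma (Xrcc5 adjusted p = 0.0533; 7 members at an unadjusted p below 0.05; 2.40% of all genes called). Brca2, Prkdc and Chek2 were called under neither, with adjusted p from 0.0612 to 0.0875 under the random effect and from 0.138 to 0.182 after averaging. Prkdc, the catalytic subunit of DNA-PK that Ku recruits, ran from 11.14 through 11.25 to 11.37 in supplied and from 10.67 through 10.89 to 11.30 in withdrawn embryos (lowest, median, highest). Withdrawn replicates 4, 5 and 6 made up the low end, at 10.76, 10.67 and 10.70, while withdrawn replicate 3, at 11.30, lay within the supplied range. The log2 fold change was -0.30 (SE 0.09, adjusted p = 0.0347 in limma), with 5 of 6 withdrawn embryos below the supplied mean. Xrcc6, which encodes Ku70, had means of 11.10 ± 0.04 and 11.07 ± 0.11 and a log2 fold change of -0.03 (95% interval -0.16 to 0.10). Lig4, the ligase that closes the joint, was at -0.09 (95% interval -0.29 to 0.10).

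Among BRCA and strand exchange genes, Brca2 was the 1 of 11 called. Brca2 encodes a mediator of recombination that acts on single-stranded DNA. Its supplied embryos spanned 12.30 to 12.44 with a median of 12.36, and its withdrawn embryos 11.94 to 12.35 with a median of 12.11. Of the 6 withdrawn embryos, 5 lay below every supplied embryo, and the same withdrawn replicates 4, 5 and 6 that were low for Prkdc were lowest here, at 12.03, 11.94 and 11.97. The mean fell from 12.36 ± 0.05 to 12.13 ± 0.17, which is -0.24 on the log2 scale (SE 0.07, 1.18-fold, adjusted p = 0.0303 in limma). Brca1, the ubiquitin ligase that promotes resection and binds PALB2, spanned 11.50 to 11.85 in supplied and 11.64 to 11.99 in withdrawn embryos. It was at 0.17 (95% interval 0.03 to 0.32, adjusted p = 0.0949) and did not pass. Its partner Bard1 was at -0.02, and Palb2, the bridge from BRCA1 to BRCA2, at -0.08. Rad51ap1, which stimulates strand exchange, was at 0.16 (adjusted p = 0.139). The remaining members of the group lay close to 0. These were the recombination mediators Rad51c (-0.03), Xrcc2 (0.05) and Xrcc3 (0.08), the annealing protein Rad52 (-0.03) and the translocases Rad54l (0.08) and Rad54b (-0.05).

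No gene of break sensing and end resection was called by limma, and 2 of 7 had an unadjusted p below 0.05. Wrn, the Werner helicase, had the largest positive value of the group, 0.19 (95% interval 0.04 to 0.33, adjusted p = 0.0706), with all 6 withdrawn embryos above the supplied mean. Rbbp8, which encodes the resection factor CtIP, was at -0.17 (95% interval -0.34 to -0.01, adjusted p = 0.149), with all 6 below it. The Bloom helicase gene Blm was at 0.14 and the nuclease gene Exo1 at -0.02. The break sensor made of Mre11a, Rad50 and Nbn had values of -0.10, 0.01 and 0.02.

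Of the 8 checkpoint genes found, Chek2 was called. Chek2 encodes the effector kinase that ATM activates after double strand breaks. Its values were 8.51, 8.76 and 8.89 in supplied embryos and 8.85, 8.98 and 9.11 in withdrawn embryos (lowest, median, highest). Here 5 of 6 withdrawn embryos lay above the supplied range, and the mean rose from 8.74 ± 0.15 to 8.97 ± 0.09, which is 0.23 on the log2 scale (SE 0.07, 1.18-fold, adjusted p = 0.0398 in limma). Trp53bp1, whose protein 53BP1 shields ends from resection, fell just short at 0.21 (95% interval 0.06 to 0.36, adjusted p = 0.0536), with 5 of 6 withdrawn embryos above the supplied range. Its spans were 10.53 to 10.88 in supplied and 10.81 to 11.11 in withdrawn embryos. The chromatin mediators that act before it in the response, Mdc1 and Rnf8, were at -0.15 and -0.16 (adjusted p = 0.108 and 0.111), each with all 6 withdrawn embryos below the supplied mean. The apical kinase genes Atr (-0.21, 95% interval -0.44 to 0.02) and Atm (-0.12, 95% interval -0.32 to 0.08) were not called. Both varied widely among withdrawn embryos, Atr from 11.01 to 11.74 and Atm from 11.32 to 11.95. The ATR effector Chek1 was at -0.04 and the ATR activator Topbp1 at 0.05. Claspin, the adaptor through which ATR reaches CHK1, had means of 11.72 ± 0.05 and 11.59 ± 0.18 in the row Clspn and was at -0.14 (adjusted p = 0.215).

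None of the 9 Fanconi anemia genes was called by limma, and 1 had an unadjusted p below 0.05. That gene was Fanca, of the core ubiquitin ligase complex, at -0.14 (95% interval -0.28 to -0.01, adjusted p = 0.147), with 5 of 6 withdrawn embryos below the supplied range. Of the other core genes, Fancb was at -0.18, Fancg at -0.12, Fancc at 0.08 and Fancl, the ligase subunit, at 0.08. The anchor that brings the core complex to DNA, Fancm, was at 0.14. The substrates of the core complex, Fancd2 and Fanci, were at -0.04 and 0.06, and the BRCA1-associated helicase gene Brip1 at -0.01. The genes for parts of the nuclease complexes that cut joined or crosslinked molecules, Slx4 (0.02), Mus81 (0.02) and Eme1 (0.06), were not called, and none had an unadjusted p below 0.05. In mismatch repair, Msh6, which recognises mispaired bases, ran from 13.04 to 13.53 in supplied and from 13.34 to 13.64 in withdrawn embryos. It was at 0.21 (95% interval 0.05 to 0.37, adjusted p = 0.0719), with all 6 withdrawn embryos above the supplied mean. Pms2, which nicks the strand to be replaced, was at -0.03.

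**Figure D2:**
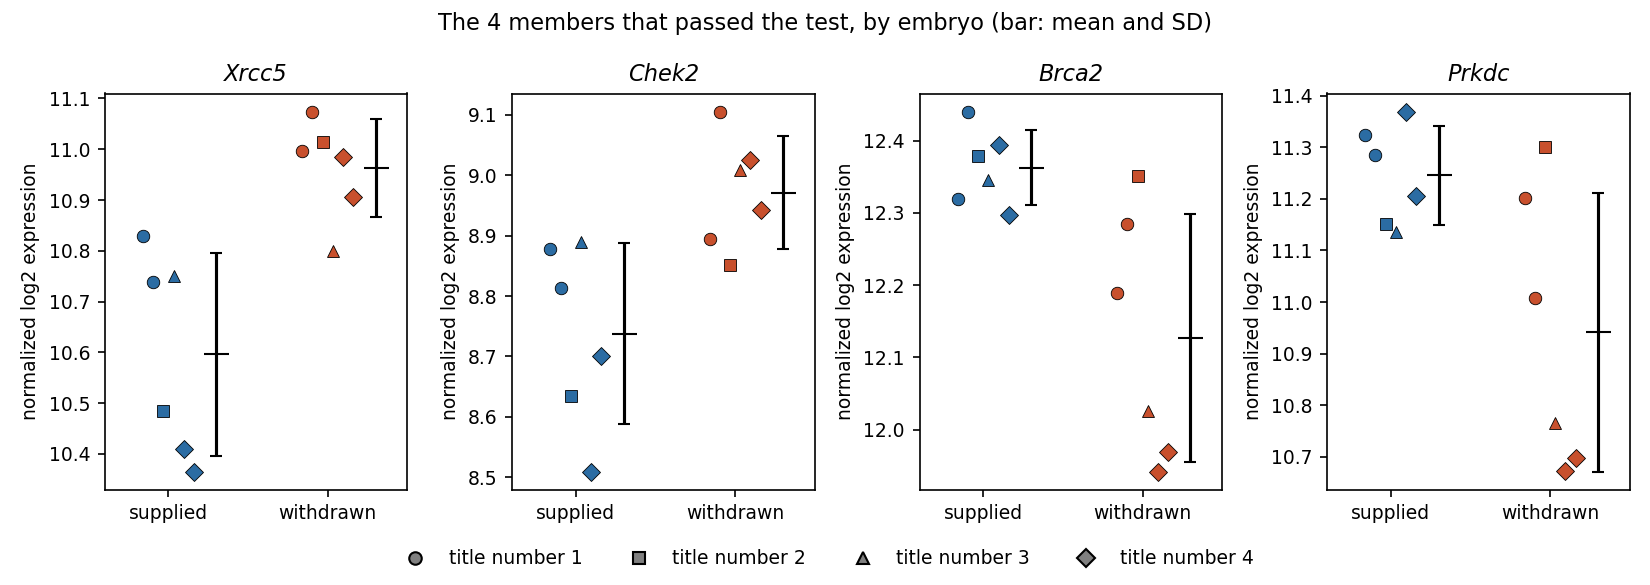
Normalized log2 expression of Xrcc5, Chek2, Brca2 and Prkdc in each of 12 embryos, with marker shape for the number in the sample title and the mean and SD beside each group. The highest supplied values of Xrcc5 (10.83) and Chek2 (8.89) lie above the lowest withdrawn ones (10.80 and 8.85), so the groups overlap.

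The balance between some partner genes differed between the diets. For 16 pairs of members the log2 ratio was formed within each embryo. Some pairs encode parts of a complex, and others, such as Rad54l and Rad54b, encode related or parallel proteins. If the deposited values are plain logs of scaled counts, a scaling factor common to a whole library drops out of the ratio. How the values were made is unknown, so this cannot be taken as given. A trend on transcript length within a library does not drop out. The pairs were listed after the fold changes had been seen, so the ratios are described without a test. In 3 of the 16 pairs the groups did not overlap. Over all 946 ratios that 44 members allow, 3.49% did not overlap. Those 3 pairs each hold Xrcc5 or Brca2, which were called, so their ratios partly restate those calls.

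The ratio of Xrcc5 to Xrcc6, the subunits of the Ku ring, lay between -0.72 and -0.31 in supplied and between -0.23 and 0.11 in withdrawn embryos, a change of 0.40. The ratio of Xrcc5 to Prkdc changed most, by 0.67 or 1.59-fold, from a mean of -0.65 ± 0.22 to 0.02 ± 0.23 (SD, n = 6 each). Brca1 to Brca2 went from between -0.80 and -0.47 to between -0.43 and -0.12, a change of 0.41, although Brca1 itself was not called. Brca1 to Bard1 changed by 0.20, from 1.56 ± 0.07 to 1.76 ± 0.07, and neither gene was called. The lowest withdrawn value of that pair, 1.65, lay just under the highest supplied value, 1.66. Other pairs moved by less relative to their spread. Chek2 to Chek1 changed by 0.28, Mre11a to Rad50 by -0.12, Fanci to Fancd2 by 0.10 and Mus81 to Eme1 by -0.05, and in each the groups overlapped.

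**Figure D3:**
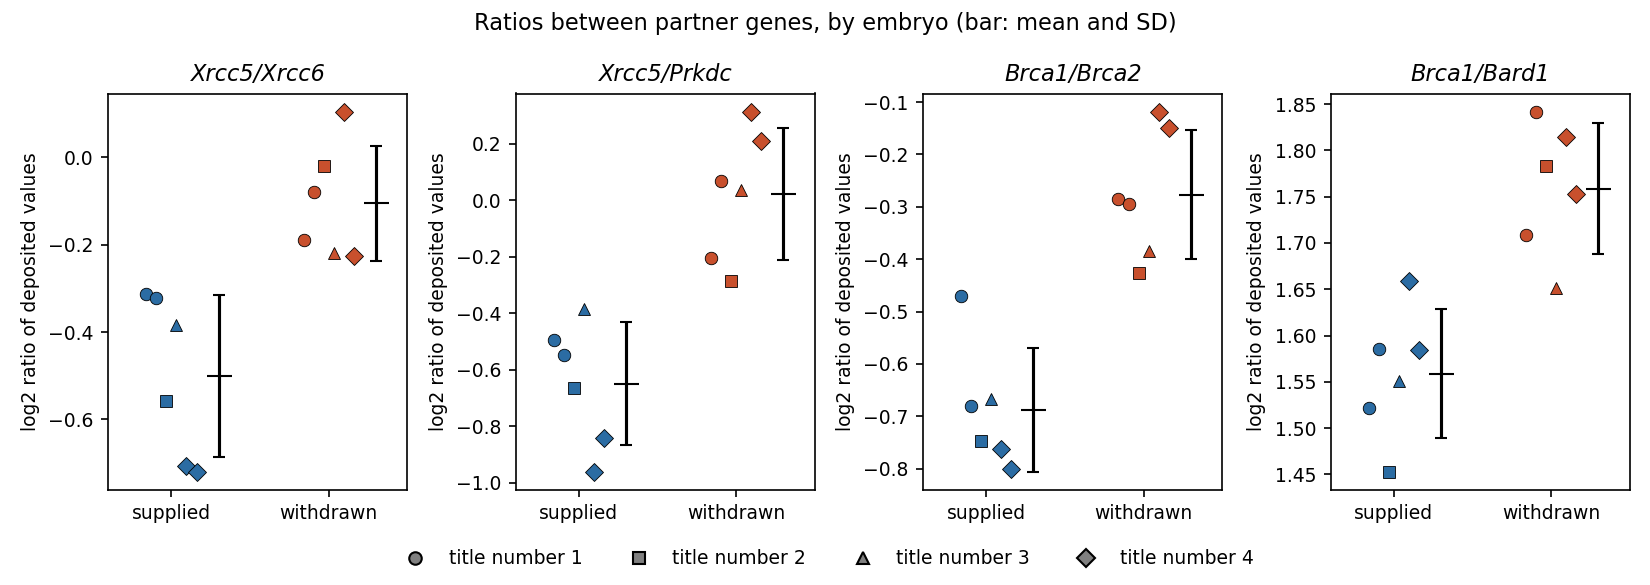
Log2 ratio of deposited values between partner genes in each of 12 embryos, with the mean and SD beside each group. The supplied and withdrawn groups are separate for Xrcc5/Xrcc6, Xrcc5/Prkdc and Brca1/Brca2, and touch for Brca1/Bard1 (1.65 against 1.66).

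The members called lower are those with the longest transcripts. Prkdc (12647 bases) and Brca2 (10724 bases) rank first and second in transcript length among the 44, and Xrcc5 (2555 bases) and Chek2 (2276 bases) are among the shorter ones. Across the 44 members, Spearman's rho of fold change with transcript length was -0.29, and across all 12302 tested genes with a length it was -0.25. Without Brca2 and Prkdc it was -0.18 over 42 members. Genes share libraries and base composition, so these values describe the table and carry no p. Next in length, Atm (9819 bases) was at -0.12, Trp53bp1 (9621 bases) at 0.21, Atr (8102 bases) at -0.21 and Exo1 (7796 bases) at -0.02. They were followed by Fancm (7775 bases) at 0.14, Mdc1 (7335 bases) at -0.15, Brip1 (6931 bases) at -0.01 and Brca1 (6572 bases) at 0.17. These long members thus had values of both signs, and of all 44 members 23 were negative. When the trend on length and GC content was removed from each library, the calls of Brca2 (-0.14, adjusted p = 0.0774), Prkdc (-0.20, adjusted p = 0.0707) and Chek2 (0.20, adjusted p = 0.0599) were lost in limma. Xrcc5 was still called (0.35, adjusted p = 0.00545), and Brca1 (0.23, adjusted p = 0.0123), Trp53bp1 (0.29, adjusted p = 0.0126), Wrn (0.25, adjusted p = 0.0233), Msh6 (0.23, adjusted p = 0.0319) and Fancm (0.21, adjusted p = 0.0472) were then called higher. With this correction 6 members were higher and 0 lower, beside 932 higher and 808 lower of 12302 genes. The changes of the ratios Brca1/Brca2 and Xrcc5/Prkdc were then 0.37 and 0.54.

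**Figure D4:**
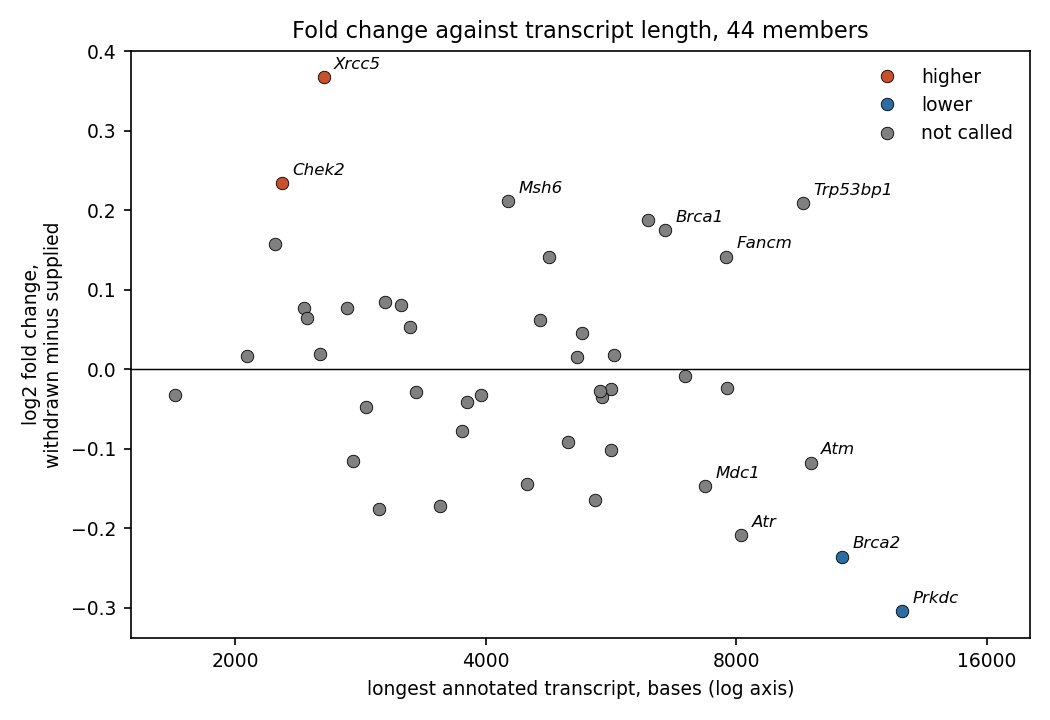
Log2 fold change of 44 members (vertical axis) against the length in bases of their longest annotated transcript (log axis), coloured by call. Prkdc and Brca2 lie lowest and farthest right, and Trp53bp1, of 9621 bases, lies above 0.

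The members varied among embryos of the same diet. The mean distance of the 44 members from their own averages ran from -0.05 to 0.07 in supplied and from -0.06 to 0.06 in withdrawn embryos, and these ranges overlap. Withdrawn replicate 5 departed most, with an SD of 0.23 across members, where the other embryos had 0.08 to 0.17. Withdrawn replicates 4, 5 and 6 are the withdrawn embryos of title numbers 3 and 4. In them Atm, Atr, Prkdc and Brca2 all took their 3 lowest values of the 12 embryos, a set chosen after the values were seen. For Atr these were 11.11, 11.01 and 11.16, and for Atm 11.51, 11.32 and 11.41. These genes are also among the longest members, at 8102 to 12647 bases. Trp53bp1, of 9621 bases, lay above its supplied mean in the same embryos. What part length has here was not tested.

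The differences under each title number are given as values, with no test of whether they differ between numbers. Between embryos of title number 1, Prkdc differed by -0.20 and Brca2 by -0.14, and between those of title number 4 by -0.60 and -0.39. Title numbers 2 and 3 have 1 embryo per diet, and there Prkdc differed by 0.15 and -0.37 and Brca2 by -0.03 and -0.32. Xrcc5 was higher in withdrawn embryos under all 4 numbers, by 0.25, 0.53, 0.05 and 0.56, and Chek2 by 0.16, 0.22, 0.12 and 0.38. Without the 4 embryos of title number 4 limma called 0 members (3 had an unadjusted p below 0.05). Xrcc5 was then at 0.27 (adjusted p = 0.146), Chek2 at 0.16 (0.339), Brca2 at -0.16 (0.311) and Prkdc at -0.16 (0.444). Only 0.394% of all genes were called in that smaller set.

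Leaving out 1 embryo also ended calls. Brca2 was not called without supplied replicate 2, 3 or 5 or withdrawn replicate 4, 5 or 6 (adjusted p from 0.0565 to 0.0791). Chek2 was not called without supplied replicate 3, 5 or 6 or withdrawn replicate 2, 4, 5 or 6 (adjusted p from 0.0614 to 0.114). Prkdc was not called without supplied replicate 1, 2, 5 or 6 or withdrawn replicate 4, 5 or 6 (adjusted p from 0.0571 to 0.0912). All 4 called members kept their direction in each of the 31 alternatives. Some of these, such as another threshold, filter or variance model, leave the fold change of a member as it was. In those the direction could not turn.

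**Figure D5:**
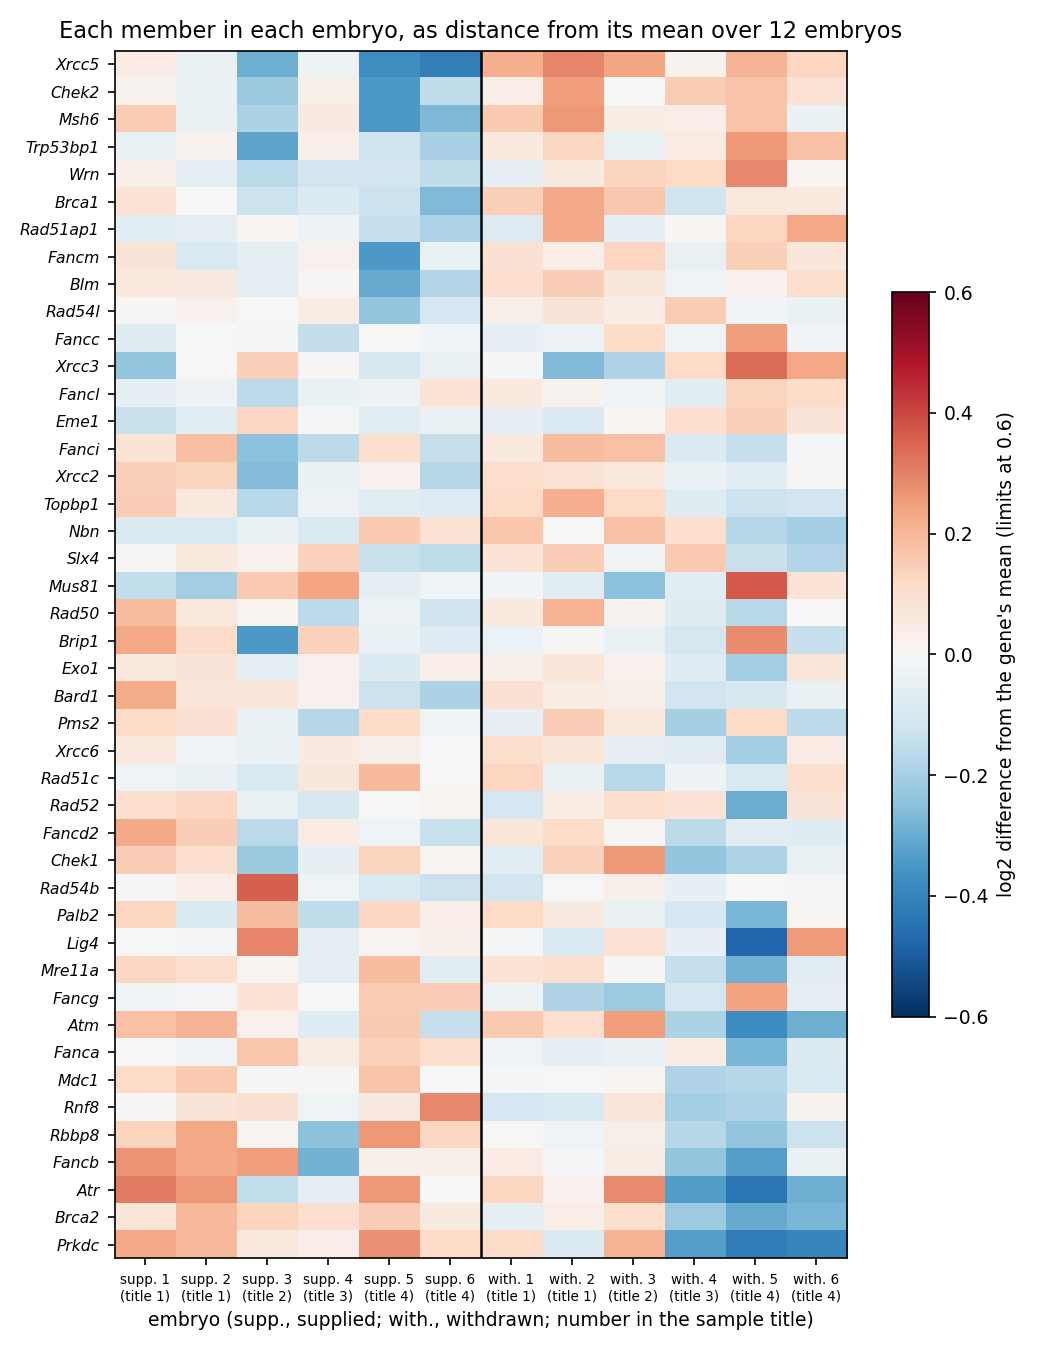
Distance of each of 44 members (rows, ordered by fold change) from its mean over 12 embryos (columns), on the log2 scale. Withdrawn replicates 4, 5 and 6 are darkest blue for Prkdc, Brca2 and Atr at the bottom, and Xrcc5 at the top is darkest blue in supplied replicates 5 and 6.

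Other genes of the same pathways gave a similar share of calls. Of 80 further repair and checkpoint genes, 6 were higher and 3 lower (11.2%, beside 14.0% of all genes), with a median log2 fold change of -0.01. Those that rose included the mitotic phosphatase Cdc25c (0.38), the cohesin subunit Rad21 (0.36), the break sensor Parp1 (0.30), the single strand binding subunit Rpa1 (0.25) and Rad9 (0.20), of the checkpoint clamp. Those that fell were the translesion polymerase subunit Rev3l (-0.45), the Fanconi core gene Faap100 (-0.32, listed as 2310003H01Rik) and Polq (-0.27), the polymerase of alternative end joining.

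Counts for other processes stand beside these, against 6.22% of all genes higher and 7.75% lower. Of 20 mitotic genes, 6 were higher and 0 lower, with a median log2 fold change of 0.19, and of 25 S-phase genes limma called 0 (6 had an unadjusted p below 0.05; median 0.06). Of 27 meiosis genes, 13 were lower and 0 higher (median -0.26). The mean of the mitotic genes lay between 11.01 and 11.31 in supplied and between 11.26 and 11.38 in withdrawn embryos. It goes largely with the diet, so a fit that holds both cannot separate them well. With that mean as a covariate, limma called 0 of all genes and 0 members (5 had an unadjusted p below 0.05). Xrcc5 was then at 0.06 and Chek2 at 0.05, while Brca2 was at -0.25 and Prkdc at -0.37. Markers of the sorted cells themselves differed between the diets. Of 15 germ cell markers, of which 14 lay above the median gene, 10 were higher and 3 lower (86.7% called, median 0.30). The list thus moved in both directions. The 3 lower were Mael (-0.77), Dazl (-0.43) and Ddx4 (-0.34), and those higher included L1td1 (0.72) and Sox2 (0.35). Pou5f1, which encodes the Oct4 used for the sort, was at 0.45 (adjusted p = 0.00505 in limma). The mean over 15 markers of ovarian supporting cells lay between 5.42 and 5.63 in supplied and between 5.35 and 5.51 in withdrawn embryos, below the median gene (8.13), and 1 of the 15 lay above that gene. All 15 had negative log2 fold changes (median -0.11), 8 with an unadjusted p below 0.05 and 2 called lower. All 6 mesenchymal markers found were negative too (median -0.18), 5 with an unadjusted p below 0.05 and 1 called lower. Other lists had both signs. Of 7 endothelial markers 3 were positive and 4 negative (median -0.01), and limma called 0 (2 had an unadjusted p below 0.05). Only 1 of the 7, Pecam1, lay above the median gene (means 11.18 supplied, 11.38 withdrawn). Of 6 mesonephric epithelium markers 4 were positive and 2 negative (median 0.03), with 1 called higher (Epcam, 0.22). Only 2 of the 6 lay above the median gene, Epcam (means 11.02 supplied, 11.24 withdrawn) and Cdh1 (10.63, 10.69). Pax8 (4.00, 4.02) and Krt8 (4.49, 4.53) were low. Whether Pecam1, Epcam and Cdh1 come from the sorted germ cells or from other cells was not tested. Of 8 erythroid markers 0 were listed, as were 4 of 9 macrophage markers, of which 0 lay above the median gene. With the supporting cell mean as a covariate limma called 1 of 12432 genes and 0 members (5 had an unadjusted p below 0.05), with Xrcc5 at 0.31, Prkdc at -0.35, Brca2 at -0.23 and Chek2 at 0.21. What part these processes or cells have in the members' differences was not tested.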

How the data were processed

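RNA of sorted germ cells from 12 single embryos was sequenced. The submitters' processing notes name DESeq2 1.10.1, TopHat2 2.0.13, FastQC, Trim Galore 0.4.0 and build mm9. The sources used here give neither the part each tool had nor the annotation, the counting tool, the strand or the way the log2 values were made. The authors deposited normalized log2 expression values for 12516 genes, 1 column per embryo. Whole reads could not be read back from them, so depth per embryo is unknown and no counting interval is given. Folds are differences of these log2 values converted, so they hold on the deposited scale only.

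Genes with a mean of at least log2 of 10 (3.32) over the 12 libraries were kept (12432, with 84 dropped). Withdrawn and supplied embryos were compared with limma 3.58.1 in R 4.3.3, with variances moderated along a trend on expression, a two-sided test and Benjamini-Hochberg adjustment over all genes kept. The fit was tested on simulated data. There it recovered 98.5% of genes set to change by 0.5 on the log2 scale and 48.5% of those set to change by 0.25. Of the calls made there, 6.25% were false. The simulated noise was independent between embryos, and far fewer genes were set to change than were called in the data. Recovery in the data can therefore differ. Alternatives changed the filter, scaling, variance model, weights, threshold, test, treatment of title numbers and covariates, removed the trend on transcript length and GC content, or left out each embryo; leaving out title numbers 2 and 3 was added after the data had been seen. Ties between embryos used statmod 1.5.0.

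Members and gene lists were chosen with earlier results of these data known. The rule for named genes takes every called member, the 2 uncalled members with the largest fold change in each role group, 8 members of general interest, and, of related repair genes, up to 6 called in each direction; 2 genes of that list are not reported here. Other members given as examples, the 16 pairs and the embryos set apart in the text were chosen after their values were seen. The motif search was done in Python 3.11.15. Promoter sequence is from RefSeq (GRCm38.p6), matched by symbol, and transcript length and GC content are from the longest coding transcript in an annotation of the same build, not mm9.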

Additional observations from a re-analysis of the deposited data

Results flagged for a closer look

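Among 90 sets of 6 embryos (44 members and Clspn under each diet), 5 held an embryo whose gap to the nearest other exceeded 0.625 of the whole range. Chance alone gives about 1 in 20. In supplied embryos, Rad54b was high in replicate 3 at 10.60 (next 10.28), Lig4 was high in replicate 3 at 7.84 (next 7.57) and Rnf8 was high in replicate 6 at 10.75 (next 10.55). In withdrawn replicate 5, Brip1 was high at 10.15 (next 9.88) and Clspn was low at 11.25 (next 11.58).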

How the results depend on the processing

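The 2 members higher and 2 lower were 1 and 0 at a threshold of 0.01 (3.57% of all genes called) and 6 and 2 at 0.1 (21.9%). By the exact permutation test per gene they were 0 and 0 (14 at an unadjusted p below 0.05, and 4.49% of all genes called). That test called only genes whose groups did not overlap. The groups overlapped for every member, so its count of 0 was fixed in advance. The counts were 1 and 0 with a random effect for embryos that share title number and diet (7.13% of all genes called), 0 and 0 with such embryos averaged (2.40%), 1 and 0 without title number 1 (5.86%), and 0 and 0 without title number 4 (0.394%). They were 0 and 0 with either covariate (at most 0.00804% of all genes), 6 and 0 after removal of the length and GC trend (14.1%), and 3 and 1 without the variance trend (12.1%). Without title numbers 2 and 3 they were 1 and 3 (13.3%), where Rbbp8, Atr and Prkdc were lower and Brca2 and Chek2 were not called. Leaving out 1 embryo gave 1 to 4 higher and 0 to 4 lower, with 4 and 4 without supplied replicate 4 (18.6% of all genes). With the title number as a replicate block, 5 were higher and 2 lower (16.6% of all genes). Deviations under one number correlated between the diets at 0.27, -0.10, 0.18 and -0.17 across genes, and number 1 alone matched itself best. That check cannot exclude pairing. The numbers were not taken as pairs because the labels do not say what they mean. The cause of the changes in these counts of members was not tested.

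Called members kept their direction, also where the alternative changed their fold change. Signs turned for some uncalled members. With the mitotic covariate Brca1 (0.17 without it) was at -0.0182, Msh6 (0.21 without it) at -0.0792 and Slx4 at -0.0422. Fancd2 (0.00705) and Pms2 (0.0150) turned after removal of the trend. Chek1 turned with averaging (0.00649) and without title number 4 (0.0328), Xrcc6 with library weights (0.0113) and without title number 4 (0.00318), and Slx4 without title number 1 (-0.0140). Leaving out 1 embryo gave Slx4 from -0.0118 to 0.0542, Chek1 from -0.0977 to 0.00104, Pms2 from -0.0637 to 0.0106, Xrcc6 from -0.0526 to 0.00860 and Fancd2 from -0.0715 to 0.00640. The ratio Xrcc5/Prkdc was 0.43 without title number 4. Depth is unknown, so small differences cannot be weighed against counting error.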
